A study of Homo sapiens with 20 samples.

Results

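The genes described here are 44 genes of DNA replication and S phase, the part of the cell cycle in which the genome is copied. They were taken by gene name from a count table of 36601 genes, in a list chosen with earlier results of these data known. Each name had 1 entry in the table, and all 44 passed the filter on low counts that left 12149 genes for testing. By role, 10 belong to origin licensing, 6 to helicase activation, 8 to the polymerases and primase, 6 to the sliding clamp and its loader, 5 to single-strand binding, flap removal and ligation, 3 to the supply of deoxynucleotides, and 6 to fork protection and chromatin.

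RNA came from MDA-MB-231, an established line of human breast cancer cells, in 5 groups of 4 samples. Untreated cells received neither nanoparticles nor laser light. The cells called nanoparticles alone here were kept for 4 h in 200 µl of medium holding biomimetic nanoparticles at 0.1 mg/ml. The 46 °C, 50 °C and 54 °C groups had the same incubation and then 10 min of light from an 808 nm laser, with the named temperature as the set point. Cells of all groups had grown at 37 °C for 24 h from 30000 cells per well, in RPMI medium with serum and antibiotics. Each sample pooled 2 wells of this 1 line. The time from irradiation to lysis is not given in the sources used here, and a group with light but no particles was not analysed, so the effects of light and of heat cannot be told apart. The series was designed to set treatment temperatures against each other, and the question taken here is what each temperature did to the mRNAs of the replication machinery.

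Replication starts at origins that are licensed in G1, when ORC, CDC6 and CDT1 load the ring of MCM2 to MCM7 onto DNA. In S phase the rings are turned into active helicases by MCM10, CDC45 and the GINS complex. DNA polymerase alpha with primase then starts new strands, polymerases epsilon and delta extend them on the PCNA clamp that replication factor C loads, and RPA covers the exposed single strands. FEN1 and LIG1 join the lagging-strand pieces, while ribonucleotide reductase (RRM1 and RRM2) and thymidylate synthase (TYMS) feed the fork with deoxynucleotides. Many of these genes are transcribed in late G1 and S phase under E2F transcription factors, and they are widely read as markers of proliferating tumour cells. The samples are bulk RNA, so fewer cells in S phase and less RNA per cell cannot be told apart, and mRNA levels do not measure DNA synthesis.

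Promoter windows were read for the members because an E2F-type sequence is what this family is known to share. RefSeq promoters (GRCh38.p14, from 250 bases before to 50 bases after the start) were found for 38 of the 44 members, and RPA3, MCM4, RPA2, MCM5, POLD3 and GINS4 had no entry. At least 1 of the 4 motifs TTTCCCGC, TTTGGCGC, TTTGCCGC and TTTCGCGC, searched on both strands with overlapping matches counted once, stood in 19 of these 38 promoters, or 50%. Over all 27305 promoters of the table the share was 3.33%. The motif CCAAT on either strand stood in 23 of the 38 (60.5%), against 35.7% of all promoters. A match is a description of the letters and not evidence of binding. The 30 bases around the match are given for 8 members whose values are described below, as read on the strand of the gene, with the match in capitals (GCGGGAAA and GCGCCAAA are TTTCCCGC and TTTGGCGC read on the other strand).
RFC3, chr13:33818083-33818112, plus strand: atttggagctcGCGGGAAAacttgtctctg
TYMS, chr18:657603-657632, plus strand: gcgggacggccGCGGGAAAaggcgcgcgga
CDC6, chr17:40287875-40287904, plus strand: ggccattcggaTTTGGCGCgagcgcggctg
CDT1, chr16:88803743-88803772, plus strand: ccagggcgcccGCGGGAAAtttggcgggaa
POLE, chr12:132687342-132687371, minus strand: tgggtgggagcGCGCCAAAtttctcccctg
POLE2, chr14:49688201-49688230, minus strand: ctgcggcggtgGCGCCAAAtcgcaaatatg
PCNA, chr20:5126663-5126692, minus strand: cagcgtcagggGCGGGAAAaggcgtgcgtt
MCM2, chr3:127598402-127598431, plus strand: cgtgaaccactTTTCGCGCgaaacctggtt
The genes with such a match did not share a direction in the heated cells: RFC3 and POLE had positive fitted changes, and TYMS and CDC6 negative ones, as given below.

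Libraries held 2401180 to 7710977 counts, with the group means lowest at 46 °C (2872173) and highest at 54 °C (6769582). The line's mesenchymal markers were present in every library, with VIM at 1343 to 2074 CPM (counts scaled to a common library size), and the luminal markers ESR1, PGR and FOXA1 had 22, 9 and 2 counts in all 20 libraries together. The other 3 luminal markers were present, with KRT18 at 180 to 367 CPM, KRT8 at 72.6 to 179 and GATA3 at 3.66 to 27.4. Heating was visible at 46 °C, where the chaperone gene DNAJB1 rose by 3.62 on the log2 scale (edgeR adjusted p = 7.15e-27). At 50 °C and 54 °C none of the 4 chaperone genes checked was called. Polyadenylated mitochondrial mRNAs and nuclear noncoding RNAs moved with the laser groups and are given beside the results they accompany. Replicates 1 and 2 differed from replicates 3 and 4 in many genes, in a division that the labels do not name, and it is treated at the end. A term for these pairs of replicate numbers was added to the model as an alternative, and its values stand beside the calls it changed.

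Levels are given in CPM scaled by TMM. The assay reads the 3' end of each mRNA, so CPM is not divided by gene length. RRM1, the large subunit of ribonucleotide reductase, was the most abundant member, with a mean of 355 CPM over the 20 samples, rank 369 among all tested genes. RRM2, its small subunit, followed with 189 CPM, then the helicase subunit MCM7 with 182, TYMS with 172 and CLSPN, the checkpoint mediator claspin, with 137. At the low end stood POLA2, the second subunit of polymerase alpha, with 8.82 CPM, the polymerase delta subunit POLD1 with 9.79, GINS3 with 9.86 and ORC1 with 10.5. Summed over the 44 genes, untreated cells held 3038 ± 281 CPM and cells with nanoparticles but no light 3048 ± 211 (mean ± SD, n = 4 each). The laser groups held 2881 ± 115 CPM at 46 °C, 2741 ± 319 at 50 °C and 2936 ± 364 at 54 °C. The ranges of all 5 groups overlapped. The summed MCM2 to MCM7 helicase had overlapping ranges too, with 616 ± 76.5, 655 ± 65.4, 603 ± 27.7, 657 ± 120 and 622 ± 102 CPM in the same order.

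**Figure D1:**
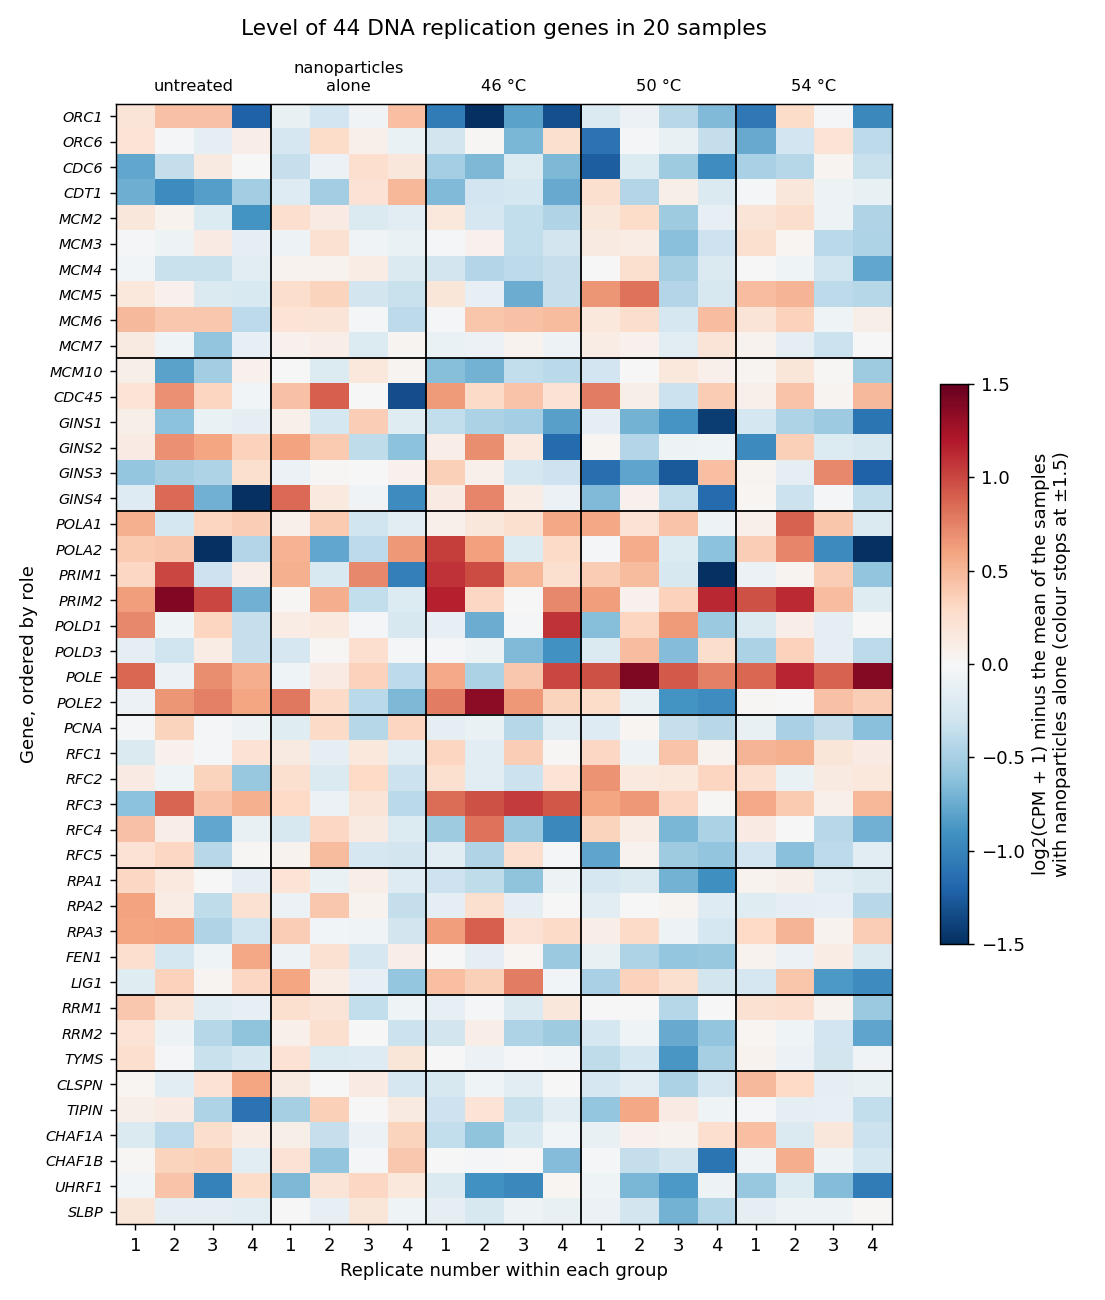
Level of each of the 44 genes (vertical, in order of role, with lines between roles) in each of the 20 samples (horizontal, by group and replicate number), as log2(CPM + 1) minus the mean of the 4 samples with nanoparticles alone; red is higher and blue is lower. RFC3 is red in all 4 samples at 46 °C, ORC1 is blue in the same 4, and POLE is red in all samples at 50 °C and 54 °C.

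Nanoparticles without light were set against untreated cells first. None of the 44 genes was called at an adjusted p under 0.05 by edgeR, where 0% of all tested genes were called, and DESeq2 called none either. At an unadjusted p under 0.05, 1 of the 44 passed, against 3.94% of all genes. The members' fitted changes fell on both sides of zero, with 23 of 44 below it and a median of -0.02 on the log2 scale. The groups were separate for none of the 44, against 2.73% of all tested genes. For 33 of the 44 genes the 95% interval lay wholly within a 2-fold change in either direction.

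The gene that passed without adjustment was CDT1, the licensing factor that brings the MCM ring to ORC. It had 22.5, 19.3, 21.1 and 26.3 CPM in untreated cells and 33.3, 26.2, 44.7 and 54.3 CPM with nanoparticles alone. The groups overlapped at a single sample each, since the highest untreated value (26.3) stood just above the lowest nanoparticle value (26.2). The log2 difference was 0.83 ± 0.26 (SE, 95% interval 0.31 to 1.34), with an edgeR adjusted p of 1.00. PRIM2, the large primase subunit, had the next smallest p. It read 17.4, 30.2, 22.8 and 6.19 CPM in untreated cells and 11, 16.4, 8.22 and 9.34 with nanoparticles alone, which overlap widely, and its log2 difference was -0.76 ± 0.39.

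At 46 °C against nanoparticles alone, 1 of the 44 genes rose and none fell, where 0.617% of all tested genes were called higher and 0.346% lower. The riser was RFC3, a small subunit of the replication factor C clamp loader. Its level was 45.1, 34.3, 41.8 and 27.3 CPM with nanoparticles alone and 66.0, 71.6, 76.8 and 70.4 CPM at 46 °C. All 4 heated samples stood above all 4 controls, and the heated samples lay close together (71.2 ± 4.44, SD, n = 4). The log2 fold change was 0.94 ± 0.23 (SE, 95% interval 0.47 to 1.41, edgeR adjusted p = 0.0238). Untreated cells read 23.4, 67.9, 49.2 and 53.4 CPM, so 1 untreated sample reached the lowest values seen at 46 °C. Set against the mean of both unheated groups, a control added after the data were seen, the change was 0.75 ± 0.20 (edgeR adjusted p = 0.0285). RFC3 lies on chromosome 13 at 33818049 to 33966558 (GRCh38, GENCODE v29), and 1 pseudogene, RFC3P1, carries its name, so some reads may be shared. In the last 500 bases of the gene, where this assay reads, 5 of the 44 members share the strand with another gene and 7 face one on the opposite strand.

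The call of RFC3 was narrow. It was lost when replicate 2 or replicate 4 of nanoparticles alone was left out (edgeR adjusted p = 0.0876 and 0.155) and when replicate 2 or replicate 3 at 46 °C was (0.0616 and 0.063). Within replicates 1 and 2 the log2 change was 0.79 (adjusted p = 0.229) and within replicates 3 and 4 it was 1.10 (0.118). The adjusted p ranged from 0.00529 to 0.229 over 11 other settings. The other 5 genes of the clamp group were not called: PCNA, the clamp itself, differed by -0.24 ± 0.17, RFC1 by 0.14 ± 0.16, RFC2 by -0.01 ± 0.23, RFC4 by -0.15 ± 0.31 and RFC5 by -0.11 ± 0.25 on the log2 scale.

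None of the 10 licensing genes was called at 46 °C, and most had lower fitted levels. Their fitted changes were below zero in 9 of 10, with a median of -0.24, against a median of 0.01 over all tested genes. In the nanoparticle samples that serve as the control, 7 of the 10 had fitted levels above untreated cells, with a median of 0.11. Their summed level was 693 to 744 CPM at 46 °C and 781 to 870 with nanoparticles alone. Untreated cells held 678 to 830 CPM, a range that covers the 46 °C samples. ORC1, the largest subunit of the origin recognition complex, had the strongest of the negative changes at 46 °C. It read 12, 10.5, 12.5 and 18.2 CPM with nanoparticles alone and 5.77, 1.49, 7.05 and 4.65 CPM at 46 °C. The groups did not overlap, but the heated values rest on 18, 5, 18 and 14 counts. The log2 difference was -1.5 ± 0.49 (95% interval -2.48 to -0.51, edgeR adjusted p = 0.153). In untreated cells ORC1 read 15.1, 18.1, 18.1 and 5.03 CPM, so 1 untreated sample lay among the heated ones.

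CDC6, the ATPase that works with ORC in loading MCM, had 58.6, 70.2, 89.0 and 84.0 CPM with nanoparticles alone and 51.9, 46.2, 64.3 and 46.5 CPM at 46 °C, with 1 heated sample above the lowest control. Its log2 difference was -0.53 ± 0.22 (edgeR adjusted p = 0.288). MCM4, a helicase subunit, also had separate groups, with 111, 110, 115 and 90.9 CPM against 87.8, 78.2, 80.3 and 83.4, and a difference of -0.37 ± 0.17. The other helicase subunits differed by -0.26 (MCM5) to 0.32 (MCM6) and none was called. MCM6 was the only licensing gene with a positive fitted change. Untreated cells held CDC6 at 43.0 to 81.7 CPM and MCM4 at 84.0 to 103, and both ranges overlap the heated values.

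Among the helicase activators, MCM10 read 58.9, 51, 66.1 and 60.9 CPM with nanoparticles alone and 37.5, 35.8, 45.4 and 44.2 CPM at 46 °C. These groups did not overlap, the log2 difference was -0.54 ± 0.21, and the edgeR adjusted p was 0.273. GINS1, a GINS subunit, was separate as well, at 32.8, 25.6, 40.4 and 27.3 against 23.7, 22.1, 21.5 and 17.3 CPM. Untreated cells held MCM10 at 62.7, 33.3, 40.8 and 61.9 CPM, a range that covers all the heated values. They held GINS1 at 19.9 to 33.1 CPM, which overlaps its heated values. In all, 5 of the 44 genes had groups that did not overlap, 4 below the controls (ORC1, MCM4, MCM10 and GINS1) and 1 above (RFC3), where 6.96% of all tested genes were separate in either direction. At an unadjusted p under 0.05, 8 of the 44 passed, 3 higher and 5 lower, against 11% of all genes in either direction.

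Polymerase and primase genes had positive fitted changes at 46 °C in 7 of 8, with a median of 0.45, and none was called. In the nanoparticle samples that serve as the control, 6 of these 8 genes had fitted levels below untreated cells, with a median of -0.24. Their summed level was 155 to 207 CPM at 46 °C and 151 to 184 CPM in untreated cells, which overlap. POLE2, a noncatalytic subunit of polymerase epsilon, read 28.2, 19.7, 11.8 and 9.58 CPM with nanoparticles alone and 27.9, 41.8, 25.5 and 20.3 CPM at 46 °C. The groups overlapped, and the difference was 0.73 ± 0.34. The 3 genes of nucleotide supply had fitted changes below zero, and none was called. TYMS read 187, 176, 185 and 182 CPM at 46 °C and differed by -0.05 ± 0.15, RRM1 by -0.06 ± 0.15 and RRM2 by -0.28 ± 0.18. The interval lay within a 2-fold change for 32 of the 44 genes at this temperature.

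Signs of RNA state differed at 46 °C as well. The 13 mitochondrial mRNAs summed to 42439 to 53919 CPM, against 107208 to 125004 with nanoparticles alone, and 9 of them fell. The 6 nuclear noncoding RNAs summed to 3111 to 4422 CPM against 1378 to 2042, and 3 of them rose. Untreated cells held 1419 to 3125 CPM of these 6 RNAs, a range that overlaps the 46 °C samples. The part of either set in the differences of the replication genes was not tested.

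**Figure D2:**
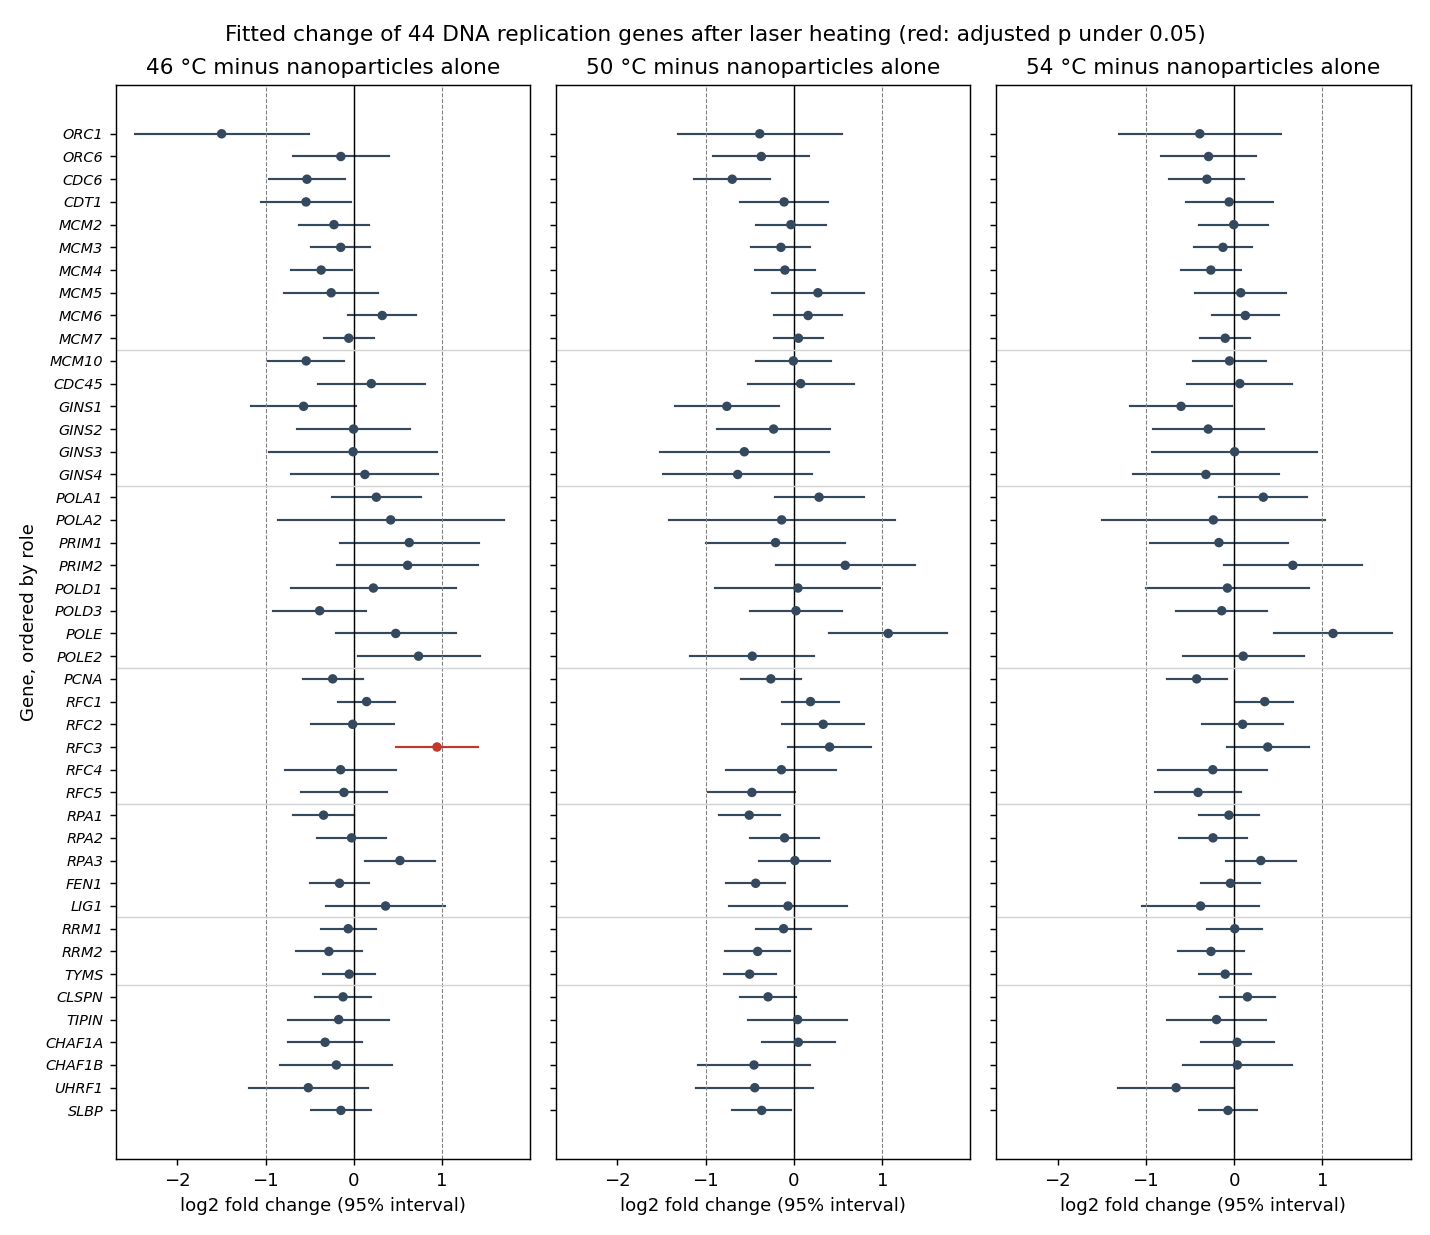
Log2 fold change of each of the 44 genes (vertical, in order of role) against nanoparticles alone at 46, 50 and 54 °C, as points with 95% intervals from the fit over 20 samples; dashed lines mark a 2-fold change and red marks an adjusted p under 0.05. RFC3 at 46 °C is the only red point, and most intervals cross zero.

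At 50 °C against nanoparticles alone none of the 44 genes was called by edgeR, where 0.527% of all tested genes were called higher and 0.691% lower. DESeq2 called 1 (TYMS, lower), where it called 249 genes in all. With a term for the pairs of replicate numbers edgeR called 3, all lower (TYMS, CDC6 and RRM2). That setting called 330 of all tested genes, 180 of them lower, against 148 in the main fit. Without adjustment 8 of the 44 passed in the main fit, 1 higher and 7 lower, against 11.4% of all genes in either direction. The median change of the members was -0.13, with 29 of 44 below zero, and the median of all tested genes was 0.02.

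TYMS, which makes the thymidine nucleotide needed only for DNA, had the smallest p among the members at this temperature. It read 218, 162, 164 and 212 CPM with nanoparticles alone and 144, 156, 101 and 133 CPM at 50 °C. The heated samples all lay below the controls, by a small margin between 156 and 162. The log2 difference was -0.50 ± 0.15 (SE, 95% interval -0.80 to -0.21) and the edgeR adjusted p was 0.0752. The value sits near the threshold: with DESeq2 the adjusted p was 0.0465, and in edgeR with library totals alone it was 0.0115 at a change of -0.62. That scaling also moved the median of all tested genes, from 0.02 to -0.10. With the term for replicate pairs the edgeR adjusted p of TYMS was also 0.0115, at -0.51 ± 0.13. Within replicates 1 and 2 the change was -0.34 (adjusted p = 0.37) and within replicates 3 and 4 it was -0.69 (0.0967). Without heat50 replicate 3, the lowest sample, it was 0.288 at a change of -0.40. Untreated cells, with 223, 184, 149 and 156 CPM, overlapped the 50 °C samples. At the 3' end of TYMS (chromosome 18, 657604 to 673578, GRCh38) the gene ENOSF1 lies on the opposite strand, and the strand setting of the counting is not given, so reads from the pair could be shared.

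The other nucleotide genes had smaller differences. RRM2 read 230, 259, 219 and 175 CPM with nanoparticles alone and 183, 208, 129 and 145 at 50 °C, a difference of -0.41 ± 0.18 (-0.43 ± 0.12 with the term for replicate pairs, edgeR adjusted p = 0.0384), while RRM1 read 419, 406, 274 and 341 against 355, 357, 263 and 353, a difference of -0.12 ± 0.15. Both pairs of groups overlapped.

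CDC6 was again below its control mean at 50 °C, with 31.0, 64.5, 51.3 and 38.4 CPM and 1 sample (64.5) above the lowest control (58.6). Its log2 difference was -0.70 ± 0.22 with an edgeR adjusted p of 0.0972, and -0.68 ± 0.20 with 0.0388 once the term for replicate pairs was added. Within replicates 1 and 2 it was -0.43 (0.582) and within replicates 3 and 4 -0.95 (0.12). The estimate moved in either direction with the sample left out. Without replicate 2 at 50 °C it was -0.91 with an edgeR adjusted p of 0.0372, and without replicate 1 it was -0.56 with 0.345. The other licensing genes lay between -0.39 (ORC1) and 0.27 (MCM5). ORC1 itself read 11, 12.2, 9.56 and 7.86 CPM, close to its control values.

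On the lagging strand, RPA1, the large DNA-binding subunit of RPA, had separate groups, with 113, 91.6, 105 and 85.7 CPM with nanoparticles alone and 82.6, 84.6, 59.7 and 51.6 CPM at 50 °C. It was singled out after its values were seen. Its log2 difference was -0.51 ± 0.17 (edgeR adjusted p = 0.156, and 0.0325 to 0.586 over 11 other settings). The other RPA subunits did not share this value, with -0.11 ± 0.19 for RPA2 and 0.01 ± 0.20 for RPA3. FEN1, the flap endonuclease, read 119, 148, 106 and 135 against 117, 90.8, 84.3 and 84.7 CPM, with a difference of -0.43 ± 0.17 and an overlap at 1 heated sample.

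POLE, the catalytic subunit of the leading-strand polymerase epsilon, was the member with the largest positive estimate. It read 11, 12.7, 15 and 8.60 CPM with nanoparticles alone, 17.6, 8.06, 15.7 and 24.3 at 46 °C, 23.4, 32.3, 22.9 and 20.2 at 50 °C and 21.8, 26.9, 22.2 and 31.6 at 54 °C. Every sample at 50 °C and 54 °C was above every sample with nanoparticles alone. The log2 differences from nanoparticles alone were 0.47 ± 0.34 at 46 °C, 1.07 ± 0.33 at 50 °C (edgeR adjusted p = 0.102) and 1.12 ± 0.33 at 54 °C (95% interval 0.46 to 1.78, adjusted p = 0.283). These 3 values share the same 4 control samples. Untreated cells read 21.9, 10.9, 19.4 and 17.4 CPM, and their highest sample lay within the heated range. POLE2, its partner subunit, read 19.5, 14.6, 8.05 and 7.86 CPM at 50 °C, a difference of -0.47 ± 0.35, so the subunits of this enzyme had estimates of opposite sign. In all, 1 of the 44 genes (POLE) lay wholly above the controls at 50 °C and 2 (RPA1 and TYMS) wholly below, where 8.33% of all tested genes were separate in either direction. The interval lay within a 2-fold change for 33 of the 44.

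At 50 °C the mitochondrial mRNAs summed to 151720 to 210956 CPM, above the nanoparticle samples and opposite to 46 °C, and 6 of the 13 rose. The nuclear noncoding RNAs summed to 3392 to 4671 CPM, and 2 of the 6 rose. Their part in the values above was not tested.

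**Figure D3:**
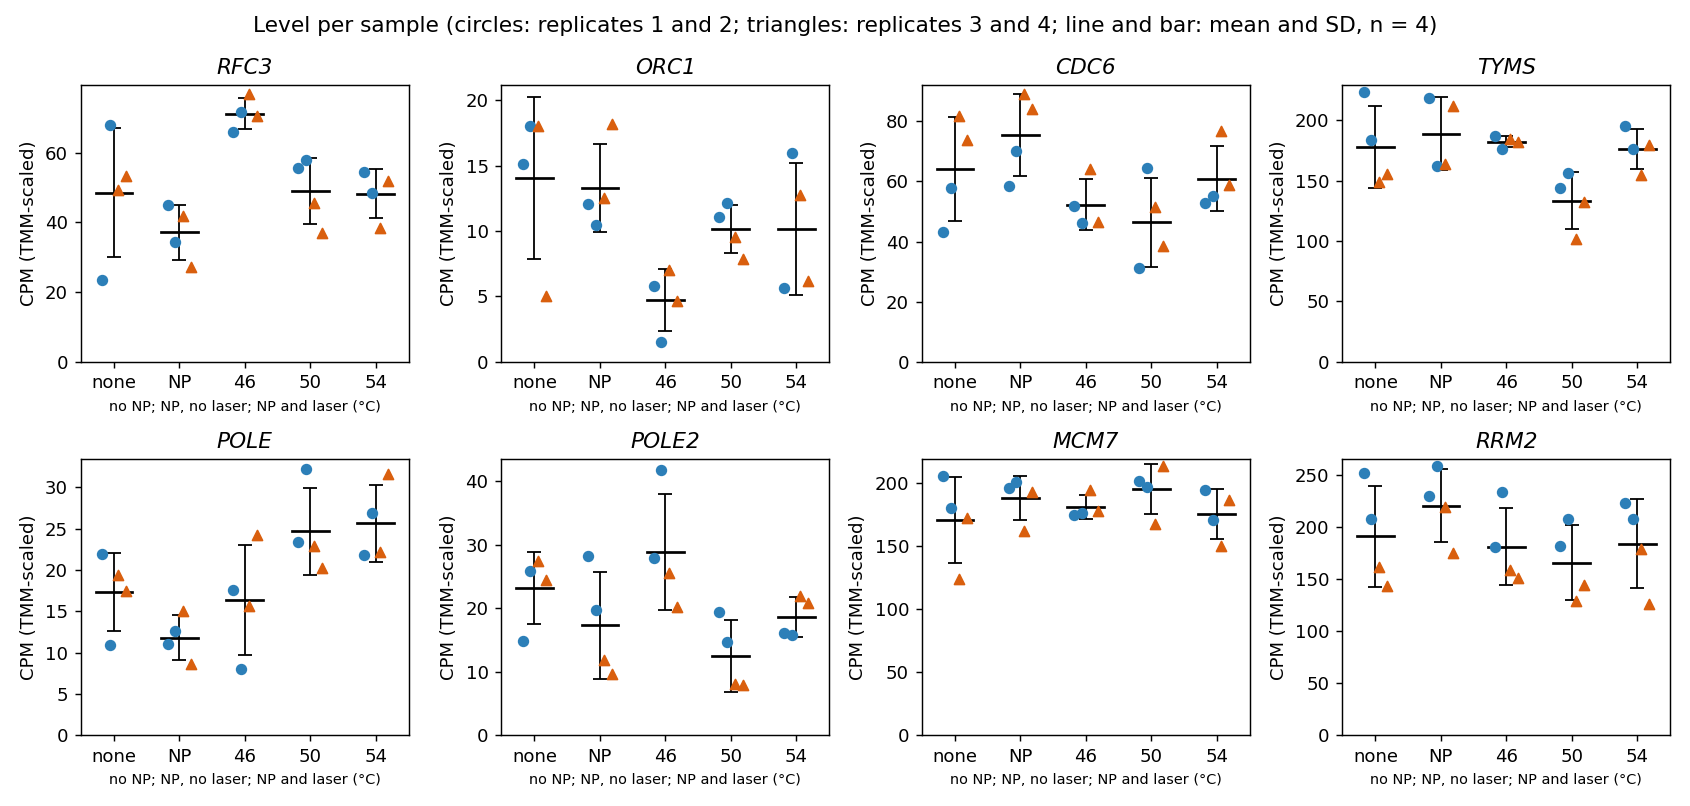
Level in CPM (vertical, from 0) of 8 genes in each sample of the 5 groups (horizontal: none is untreated, NP is nanoparticles alone, then the laser temperatures); circles are replicates 1 and 2, triangles replicates 3 and 4, and line and bar are the mean and SD of 4 samples. RFC3 peaks at 46 °C (71.2 CPM), TYMS is lowest at 50 °C (134 CPM), and in RRM2 the triangles lie below the circles in every group.

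At 54 °C against nanoparticles alone none of the 44 genes was called by edgeR, where 0.0741% of all tested genes were called higher and 0.0494% lower, and DESeq2 called none. Without adjustment 4 of the 44 passed, 2 higher and 2 lower, against 5.75% of all genes. The median of the members was -0.07 and 36 of the 44 intervals lay within a 2-fold change. POLE, given above, was the member whose groups did not overlap, against 4.28% of all tested genes.

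PCNA had the second smallest p at 54 °C. It read 99.1, 138, 83.3 and 141 CPM with nanoparticles alone and 104, 80.3, 87.8 and 72.6 CPM at 54 °C, which overlap, and its log2 difference was -0.42 ± 0.17 (edgeR adjusted p = 0.728). RFC1, the large clamp loader subunit, read 110, 91.4, 113 and 89.7 against 143, 146, 114 and 109 CPM, a difference of 0.35 ± 0.16. The most abundant helicase subunit, MCM7, had small differences in every laser group. It read 196, 201, 162 and 193 CPM with nanoparticles alone, 174, 177, 195 and 178 at 46 °C, 202, 197, 167 and 214 at 50 °C, and 195, 171, 150 and 187 at 54 °C. Its differences from nanoparticles alone were -0.06 ± 0.14, 0.05 ± 0.14 and -0.10 ± 0.14 in the order of temperature. POLA1, the catalytic subunit of polymerase alpha and the most abundant gene of its role, read 33.3, 41.8, 25.4 and 27.8 CPM with nanoparticles alone and 33.2, 59.1, 42.3 and 27.0 CPM at 54 °C. Its differences were 0.25, 0.28 and 0.33 in the order of temperature, each with an SE of 0.25. The mitochondrial mRNAs summed to 124386 to 154077 CPM at 54 °C and the nuclear noncoding RNAs to 3901 to 5022 CPM, and the part of either in these values was not tested.

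The temperatures were also compared with each other. From 46 °C to 50 °C none of the 44 genes was called by edgeR. Of all tested genes that fit called 0.584% higher and 0.609% lower. DESeq2 called 1 of the 44 (TYMS, lower), where it called 265 genes in all. With the term for replicate pairs edgeR called 2, both lower (POLE2 and TYMS). That setting called 341 of all tested genes, 172 of them lower, against 145 in the main fit. Without adjustment 7 of the 44 passed in the main fit, 2 higher and 5 lower, against 10.6% of all genes. POLE2 had the smallest p, going from 27.9, 41.8, 25.5 and 20.3 CPM to 19.5, 14.6, 8.05 and 7.86, with all 50 °C samples below all 46 °C samples. The log2 difference was -1.21 ± 0.35 (edgeR adjusted p = 0.0727), and -1.23 ± 0.34 with the term for replicate pairs (0.0235). Within replicates 1 and 2 it was -1.03 (0.237) and within replicates 3 and 4 -1.52 (0.256). It was -1.5 with an adjusted p of 0.0378 without replicate 1 at 50 °C, and -0.97 with 0.324 without replicate 2 at 46 °C. TYMS was separate too, with a difference of -0.45 ± 0.15 (adjusted p = 0.143, and 0.0291 with the pair term). RFC3 read 55.5, 57.8, 45.6 and 37.0 CPM at 50 °C, all below its 46 °C values, and was not called. In the opposite direction ORC1 and MCM10 were wholly above their 46 °C values, MCM10 with 48.1, 59.3, 65.9 and 62.0 CPM. Groups were separate for 5 of the 44, against 7.1% of all tested genes.

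From 50 °C to 54 °C none of the 44 genes was called by edgeR or DESeq2, where 0.0576% of all tested genes were called higher and 0.14% lower. Without adjustment 4 passed, all higher, against 6.02% of all genes in either direction. CLSPN, which carries the checkpoint signal from stalled forks to CHK1, read 114, 121, 97.4 and 114 CPM at 50 °C and 191, 167, 123 and 126 CPM at 54 °C, without overlap. Its log2 difference was 0.44 ± 0.16 (edgeR adjusted p = 0.482). TYMS read 195, 176, 154 and 180 CPM at 54 °C, a difference of 0.40 ± 0.15 with an adjusted p of 0.523 and 1 sample (154) below the highest 50 °C value (156). RPA1 was separate as well, at 103, 105, 88.0 and 84.9 CPM, which makes 2 of the 44 against 5.13% of all tested genes. From 46 °C to 54 °C again none was called by either tool, where 0.239% of all tested genes were called higher and 0.395% lower, and 5 passed without adjustment against 8.56% of all genes. RFC3, at 54.4, 48.3, 38.4 and 51.8 CPM at 54 °C, lay wholly below its 46 °C samples with a difference of -0.56 ± 0.23 (adjusted p = 0.423). CDT1, at 37.4, 43.2, 36.1 and 35.3 CPM, lay wholly above its 46 °C values of 23.7, 31.0, 31.7 and 22.3, which makes 2 of the 44 separate against 5.73% of all tested genes. MCM10 differed by 0.49 ± 0.21 (adjusted p = 0.481).

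The rest of the pathway was read from a second list. A further 70 replication genes were tested (origin and checkpoint factors, histone chaperones, repair partners of the fork). Of these, 1 fell and none rose at 46 °C against nanoparticles alone, where 0.346% of all tested genes fell and 0.617% rose. That gene was DTL, which targets CDT1 for destruction in S phase, with 55.0 ± 10.9 CPM with nanoparticles alone and 29.8 ± 8.20 at 46 °C (SD, n = 4). Its log2 change was -0.88 ± 0.23 (edgeR adjusted p = 0.0465), though the groups overlapped. Untreated cells held DTL at 30.1 to 40.9 CPM, a range that overlaps the 46 °C samples, which reached 39.5 CPM. From 46 °C to 50 °C 1 of the 70 fell, where 0.609% of all tested genes were called lower. It was the histone chaperone NASP, which went from 252 ± 34.9 to 183 ± 12.7 CPM, by -0.46 ± 0.12 (edgeR adjusted p = 0.046). Every 50 °C sample of NASP lay below every 46 °C sample. In the other 5 comparisons none of the 70 was called by edgeR, with 2 to 14 at an unadjusted p under 0.05. The 14 of 70 were at 50 °C against nanoparticles alone, 5 higher and 9 lower, where 11.4% of all tested genes passed. The other 4 comparisons had 2 to 4 of 70, against 3.94% to 8.56% of all genes. The smallest p there belonged to GMNN, the inhibitor of CDT1, for nanoparticles against untreated cells (-0.55, adjusted p = 1.00), RAD9A, a checkpoint clamp subunit, at 50 °C (1.5 ± 0.49, adjusted p = 0.13), ATRIP, the partner of the ATR kinase, at 54 °C (1.04 ± 0.42, 0.741), NASP from 50 °C to 54 °C (0.41 ± 0.12, 0.284) and POLE4, a small polymerase epsilon subunit, from 46 °C to 54 °C (-0.52 ± 0.19, 0.312).

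Genes of G2 and mitosis, the phases after S, served as a second measure of the cycle. Of 29, 1 was called lower at 46 °C and the same 1 at 50 °C, where 0.346% and 0.691% of all tested genes were called lower. Without adjustment 4 of 29 passed at 46 °C and 6 of 29 at 50 °C, all lower, against 11% and 11.4% of all genes in either direction. The called gene was CDC20, the activator of the anaphase-promoting complex, which fell by 0.66 on the log2 scale at 46 °C (edgeR adjusted p = 0.0238) and by 0.72 at 50 °C (0.0107) against the shared nanoparticle samples. It rose by 0.85 from 50 °C to 54 °C (edgeR adjusted p = 0.00206) and by 0.79 from 46 °C to 54 °C (0.00324).

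**Figure D4:**
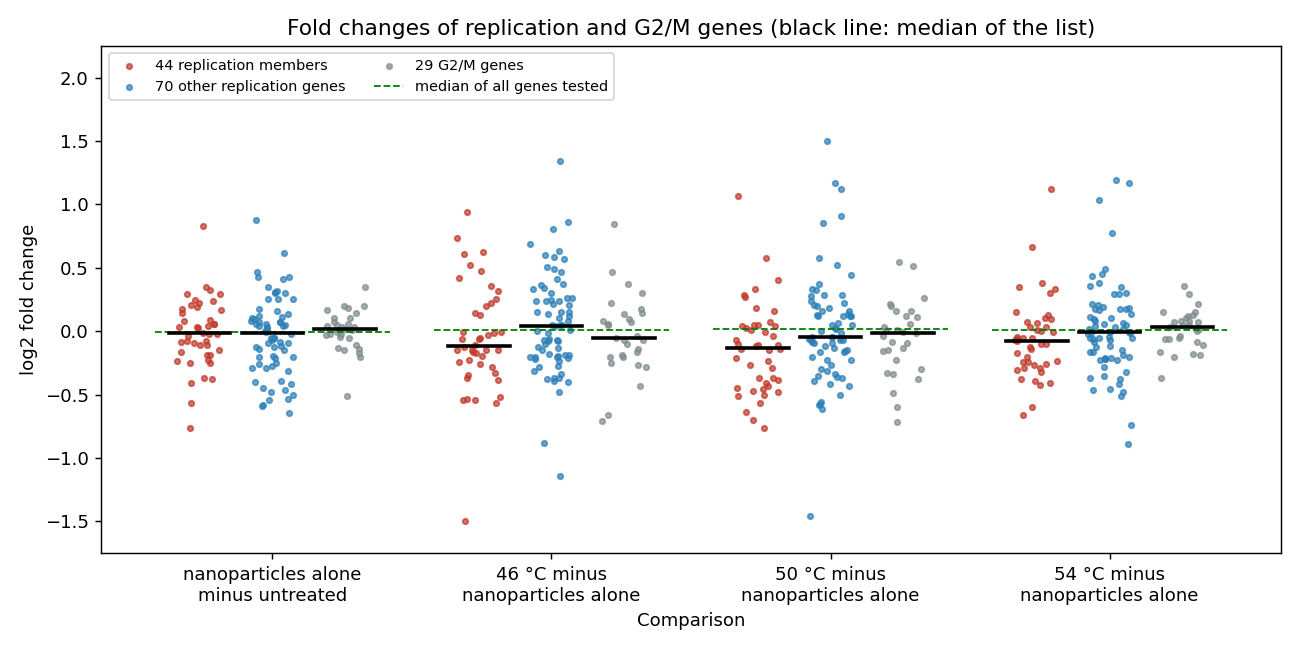
Log2 fold change (vertical) of the 44 genes (red), 70 other replication genes (blue) and 29 G2/M genes (grey) in 4 comparisons (horizontal); each point is 1 gene, the black line is the median of its list and the dashed green line the median of all tested genes. The medians of the 44 lie at -0.02, -0.12, -0.13 and -0.07, within the spread of the points in each comparison.

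More of the 44 genes were called between replicate numbers than between any pair of groups. The same held over all tested genes, with 1072 called against at most 148 between groups. The counts have unlike power, since 10 samples stood against 10 here and 4 against 4 in each comparison of groups. Replicates 1 and 2 of each group were set against replicates 3 and 4 with 1 added term in the model. The labels do not name this division, which was found in an earlier look at these data, so it is a description of how the samples differ. Of the 44 genes, 8 were lower in replicates 3 and 4 and none higher, where 4.65% of all tested genes were lower and 4.17% higher. Without adjustment 14 were lower and 1 higher, or 15 of 44 against 19.5% of all tested genes. The median was -0.19, and 35 of 44 were below zero.

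RRM2 had the smallest p, with a log2 difference of -0.47 ± 0.08 (edgeR adjusted p = 5.35e-06). Replicates 1 and 2 of the untreated cells read 252 and 208 CPM, followed by 230 and 259 with nanoparticles alone, 181 and 234 at 46 °C, 183 and 208 at 50 °C and 223 and 209 at 54 °C. Replicates 3 and 4 read 162 and 143, 219 and 175, 159 and 152, 129 and 145, and 179 and 126 CPM in the same order. Both later-numbered samples lay below both earlier-numbered ones in all 5 groups, and the means were 159 and 219 CPM. How many of all tested genes had this order in all 5 groups was not counted. An unnamed RNA gene, AC007240.1, overlaps the 3' end of RRM2 (chromosome 2, 10120698 to 10131419) on the same strand and 3 named pseudogenes exist, so its count may hold some of their reads.

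MCM5 had the same order, with replicates 1 and 2 at 55.6 and 52.0, 59.9 and 63.2, 56.4 and 45.6, 79.2 and 88.6, and 68.8 and 71.4 CPM from untreated cells to 54 °C. Replicates 3 and 4 read 42.5 and 42.2, 41.1 and 39.3, 29.4 and 38.9, 36.5 and 41.8, and 37.8 and 36.6 CPM. The difference was -0.72 ± 0.13 (edgeR adjusted p = 1.66e-05), and its 7 fitted differences between groups ran from -0.26 to 0.53, none of them called. MCM2 was also separate in all 5 groups, with means of 85.9 and 120 CPM and a difference of -0.49 ± 0.10 (adjusted p = 0.000142).

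The remaining 5 called genes were RPA3 (-0.48 ± 0.10), RFC4 (-0.67 ± 0.16), RRM1 (-0.30 ± 0.07), MCM3 (-0.33 ± 0.09) and POLA2 (-1.08 ± 0.36, from a level of 0 to 17.9 CPM), with adjusted p from 0.000293 to 0.0443. RFC4 faces EIF4A2 on the opposite strand at its 3' end. The 5 genes span helicase, clamp loader, single-strand binding, nucleotide supply and polymerase alpha. CDC6 had the largest estimate in the other direction, 0.30 ± 0.12, and was not called. The mean of replicates 3 and 4 was below that of replicates 1 and 2 in all 5 groups for 9 of the 44 genes (20.5%), against 8.73% of all tested genes, and above it in all 5 for none, against 8.45%.

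The other lists moved with the same division. Of the 70 other replication genes 12 were lower and none higher, and of the 29 G2/M genes 24 were lower and none higher, with a median of -0.44. Over all tested genes 4.65% were lower and 4.17% higher. The heat comparisons were therefore also tested for a difference between the pairs of replicate numbers. None of the 44 genes had a called difference at 46, 50 or 54 °C by edgeR or DESeq2, where edgeR called 0%, 0% and 0.00823% of all tested genes. At an unadjusted p under 0.05 there were 3, 0 and 3 of the 44, against 5.43%, 4.37% and 4.29% of all genes. Each pair holds only 2 samples of a group, so a difference between them had to be large to be called.

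**Figure D5:**
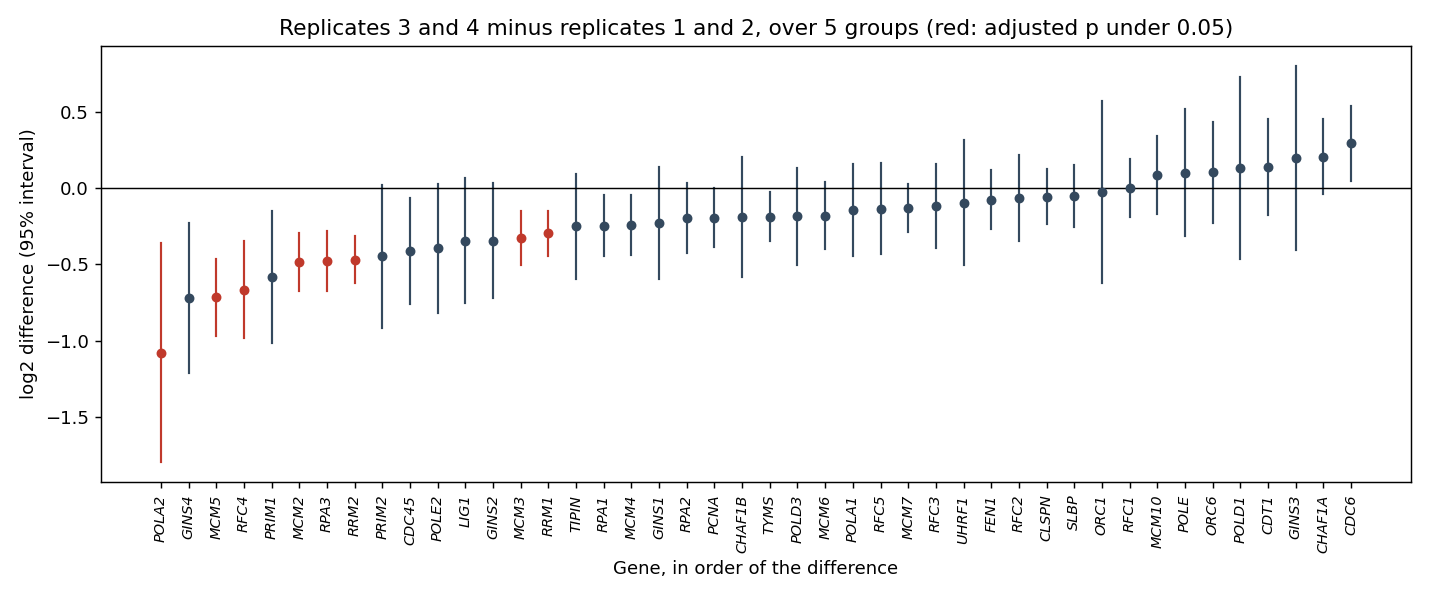
Log2 difference between replicates 3 and 4 and replicates 1 and 2 over the 5 groups (vertical) for each of the 44 genes (horizontal, in order of the difference), with 95% intervals from the fit; red marks an adjusted p under 0.05. The 8 red genes all lie below zero, from -1.08 for POLA2 to -0.30 for RRM1.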

How the data were processed

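The authors deposited 1 table of estimated counts per gene for 20 samples. The submitters' processing notes name STAR, Salmon and GRCh38. Tool versions, gene annotation and strand setting were not given in the sources used here. A QuantSeq 3' kit was used for the libraries, per the labels' protocols. Values that were not whole, 1.74% to 2.9% per library, were rounded.

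The test was edgeR 4.0.16 in R 4.3.3, by robust quasi-likelihood on 5 group means and TMM scaling, with the 20 samples in 1 fit. The default filter (count 10, total 15) left 12149 genes. Adjusted p is by Benjamini-Hochberg over these, and a gene was called under 0.05. DESeq2 1.42.0, other scalings, no filter, thinning to the lowest library total, a term or subset for the replicate numbers and leaving out each sample were alternatives. The code was tested on simulated data. Library totals of 2401180 to 7710977 counts limit precision for genes of low level.

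Values in every sample are given for members called in a comparison, the most abundant member of each role, and the 2 members with the smallest p in each of 7 comparisons. RPA1, MCM4, GINS1 and the genes that differed between replicate numbers were added after their values were seen. Of the other replication genes, up to 4 called ones were named per comparison, or the 1 with the smallest p. Members and lists were chosen with earlier results of these data known. Whether replicates were separate cultures is not stated, so each p measures variation among these samples, possibly technical only. No 2 libraries of the same group agreed within sampling noise. Promoters are from RefSeq and positions from GENCODE v29.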

Additional observations from a re-analysis of the deposited data

Results flagged for a closer look

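In 4 of 120 combinations of a named gene and a group, 1 sample stood apart from the other 3 by more than Dixon's 95% critical value for a group of 4, and chance alone marks about 1 group in 20. RRM1 read 262.8 CPM in replicate 3 at 50 °C, where the other samples read 353 to 357. PCNA read 142.9 CPM in untreated replicate 2, against 106 to 110 in the others. MCM3 read 154.6 CPM in replicate 2 of nanoparticles alone, against 123 to 127, and RFC4 read 67.7 CPM in replicate 2 at 46 °C, against 18.9 to 25.9.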

How the results depend on the processing

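The count of called members was 0 in every treatment comparison but 46 °C against nanoparticles alone, where it was 1, and no called value changed sign under the alternatives run. For 50 °C against nanoparticles alone it was 3 with library totals (TYMS, CDC6 and RPA1), 1 with DESeq2 (TYMS), 3 with the replicate block (TYMS, CDC6 and RRM2), 3 with a term for the pair of replicate numbers and 3 with the mean of both unheated groups as the control (TYMS, RPA1 and FEN1), the last chosen after seeing the data. For 50 °C against 46 °C it was 3 with library totals, 1 with DESeq2, 2 with the replicate block (POLE2 and TYMS) and 2 with the pair term. For 46 °C it was 0 after thinning, within replicates 1 and 2, and within replicates 3 and 4. Leaving out 1 sample gave 0 to 1 in these 3 comparisons and 0 in the others. With library totals the median of all genes went from 0.02 to -0.10 at 50 °C against nanoparticles alone and from -0.004 to -0.18 against 46 °C, and that of the members from -0.13 to -0.29 in the second. The cause of these moves was not tested.

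Over all tested genes the main counts were 0 for nanoparticles against untreated cells, 117, 148 and 15 for 46, 50 and 54 °C against nanoparticles alone, 145 from 46 to 50 °C, 24 from 50 to 54 °C and 77 from 46 to 54 °C. With library totals, 50 °C gave 277, 46 to 50 °C 420 and 50 to 54 °C 38. DESeq2 gave 182, 249, 32, 265, 62 and 132 in the order above without the first, and 13, 5 and 4 for the differences between pairs of replicate numbers. With no filter the first gave 2 and 54 °C gave 38. The pair term gave 263, 330, 43, 341, 69 and 160. Replicates 1 and 2 alone gave 4 for the first, 261 at 46 °C, 236 from 46 to 50 °C, 38 from 50 to 54 °C and 215 from 46 to 54 °C. Replicates 3 and 4 alone gave 2, 64 and 61 for the first, 46 °C and 50 °C, 75 from 46 to 50 °C and 43 from 46 to 54 °C. Both unheated groups as the control gave 341 at 50 °C and 29 at 54 °C. Leaving out 1 sample gave 0 to 1, 81 to 127, 80 to 122, 8 to 16, 96 to 139, 18 to 29 and 49 to 79 in the order above.

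The replicate block gave 269, 333, 46, 353, 68 and 160 genes in that order. Same-numbered samples of different groups correlated at 0.022 to 0.066 in their deviations from the group means (mean 0.042), none of 40 over 0.1. The mean was 0.041 for the other number of the same pair of replicate numbers and -0.041 for numbers of the other pair. The numbers thus carried the division between pairs, and beyond it equal numbers were little closer on average. In 22 of 40 matches of a sample to another group the best partner had its own number. That count was not set against chance.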
